A study of Mus musculus with 6 samples.

Results

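The genes described here are 10 transcription regulators of cardiac mesoderm: the basic helix-loop-helix genes Hand1 and Hand2, the GATA factor genes Gata4, Gata5 and Gata6, the T-box genes Tbx5 and Tbx20, the homeobox gene Nkx2-5, the MADS-box gene Mef2c, and Smarcd3, which encodes the BAF60C subunit of the BAF chromatin remodelling complex. They were given as a list of names, and their probe sets are those that the array annotation assigns to exactly 1 gene. All 10 were measured, among 18193 genes in all, by 24 probe sets. For each gene the brightest probe set, by its mean of all 6 arrays, is reported first. Expression was measured in Ldb1-/- (knockout) and Ldb1+/+ (wild-type) mouse embryonic stem (ES) cells that had been grown in suspension without leukaemia inhibitory factor into embryoid bodies, from which Flk1+ cells were taken at day 4. There were 3 biological replicates of each genotype, and the labels give both genotypes the same medium, day and cell isolation. The labels give neither the deleted part of Ldb1 nor the number of ES cell clones behind each genotype, and nothing says whether the replicates were separate differentiations, so the tests measure the spread between these samples.

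During gastrulation, mesoderm that has passed through a Flk1-expressing state gives rise to blood, endothelium and heart. In the heart fields the 10 factors work as a network: GATA4, NKX2-5 and TBX5 bind each other and shared enhancers, HAND factors act downstream in ventricle and outflow tract, and BAF60C lets GATA4 and TBX5 act on closed chromatin. LDB1 is an adaptor without DNA binding of its own that joins LIM-domain proteins to partners. In blood cells it works with GATA and TAL1 proteins, and in heart progenitors with the LIM-homeodomain factor ISL1. Outside the heart, HAND1 is also used by trophoblast and extraembryonic mesoderm, GATA4 and GATA6 by endoderm, and MEF2C by endothelium.

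The values are log2 expression levels, so a difference of −1 is a halving. Since probe sets bind with different strength, levels are compared between arrays and not between genes. Array medians lay between 5.71 and 5.77, and a probe set below its array's median was taken as near background. Both replicate 3 arrays stood apart in control probe sets, with the 18S ribosomal RNA 5′ control at 11.3 to 12.1, against 7.73 to 8.67 on the other arrays. Their 5′ Gapdh control read 12.93, against 10.19 to 11.11 on the others. Their 5′ Actb control read 12.97 to 13.22, against 11.19 to 11.49. The 3′ controls of both genes lay within the range of the other arrays. The part of this in the replicate 3 values was not tested. Wild-type replicate 3 also had the lowest upper quartile, 7.92, against 8.15 to 8.27 elsewhere. Ldb1 itself read 7.25, 6.60 and 8.25 in knockout arrays and 7.78, 7.31 and 8.31 in wild-type arrays. The groups overlapped, while by pair Ldb1 differed by −0.53, −0.71 and −0.06 and did not pass (blocked limma adjusted p = 0.481). Whether its 1 probe set lies in the deleted part is not given, so it does not check the labels. Kdr, the gene of Flk1, differed by −0.25, −0.81 and −0.20 by pair and did not pass either (blocked limma adjusted p = 0.493). It read above the array median on all 6 arrays, as did the other measured markers of Flk1+ mesoderm, Pdgfra, Mesp1, Etv2, Tal1 and Lmo2.

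Hand2 was far lower in knockout cells, by nearly the same amount in each replicate. Smarcd3 also read lower on every knockout array than on any wild-type array. Hand1 and Mef2c were lower in all 3 pairs, by amounts that differed widely. The other 6 genes differed by −0.49 to 0.08, and in each the pairs went both ways. Hand2 was the 1 member that passed the test, and only when the replicate number was taken as a block, which compares knockout and wild-type arrays of the same number. The numbers pair the arrays by the check described with the processing. In limma without the block 0 of 10 members passed, where 0.022% of all genes did. With the block 1 of 10 passed, where 0.341% did and 0.231% did with the knockout lower. At an unadjusted p under 0.05 the unblocked fit had 2 members and the blocked fit 4, each of them lower in knockout cells. Of all genes 3.85% reached that without the block and 8.94% with it, or 2.25% and 5.06% counting lower ones. In bulk RNA, fewer cells of a type and less RNA per cell cannot be told apart.

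**Figure D1:**
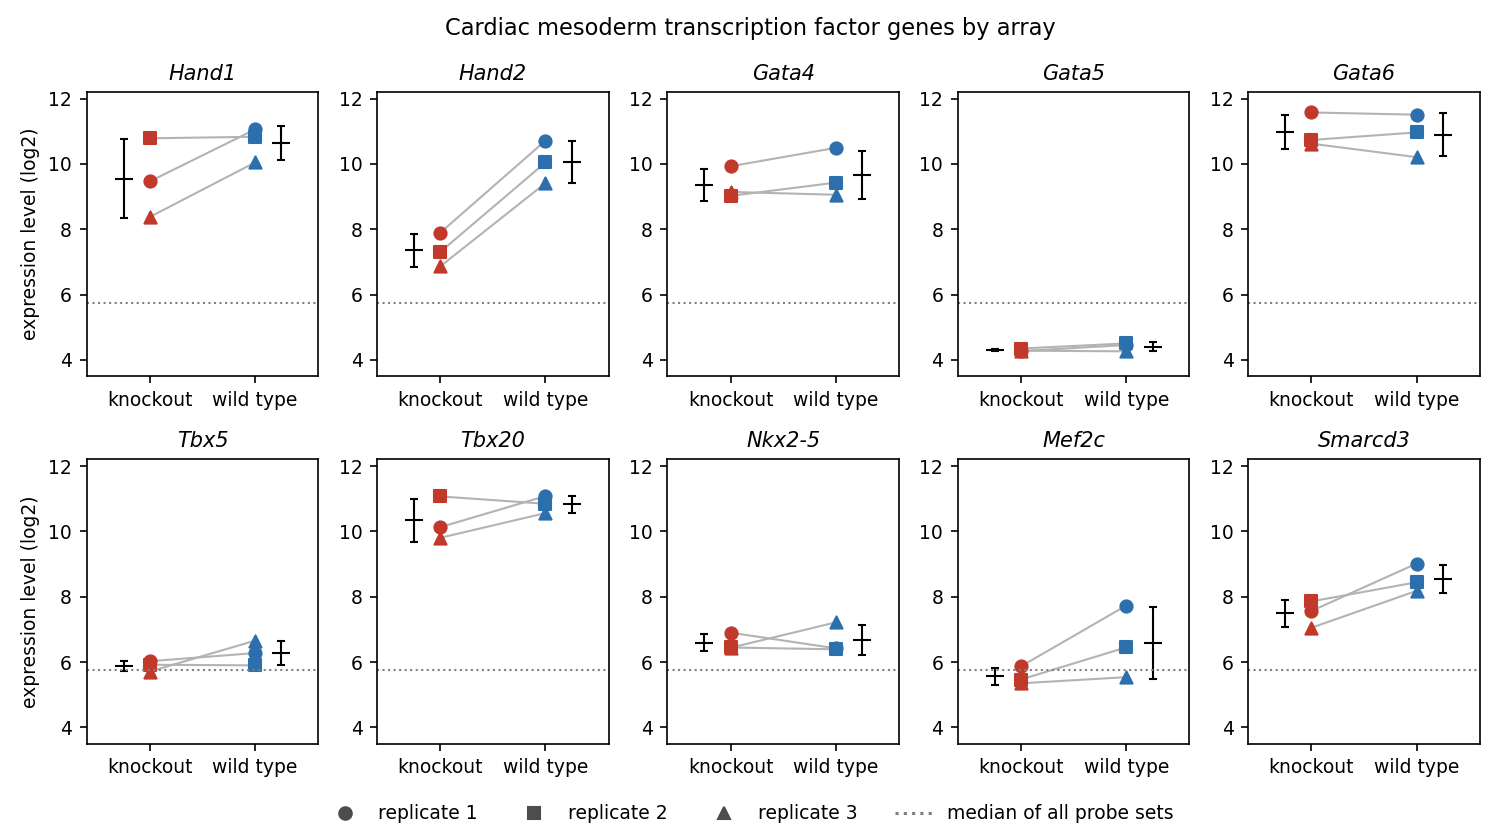
Log2 expression level of each of the 10 genes on each array, knockout on the left and wild type on the right, with grey lines joining arrays of the same replicate number. Black bars are the mean and SD of the 3 arrays, and the dotted line is the median of all probe sets. The groups separate for Hand2 and Smarcd3, and Gata5 lies below the dotted line on all 6 arrays.

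Sequence upstream of the start is shown for Hand2 and Smarcd3, whose groups did not overlap on the brightest probe set. It is also shown for Tbx20, a T-box member whose groups overlapped on its brightest probe set. Smarcd3 and Tbx20 did not pass. Each window is the 250 bases before the RefSeq start in build GRCm38.p6, 5′ to 3′ on the gene's strand. Hand2 is chr8:57320733-57320982 on the plus strand, Smarcd3 chr5:24602003-24602252 on the minus strand and Tbx20 chr9:24774304-24774553 on the minus strand. Capitals mark matches, on either strand, to a GATA hexamer (AGATAA, its variant AGATAG, the hexamer TGATAA or its variant TGATAG) or to the E-box CANNTG, the motifs of the GATA and helix-loop-helix proteins that LDB1 works with in blood.
Hand2: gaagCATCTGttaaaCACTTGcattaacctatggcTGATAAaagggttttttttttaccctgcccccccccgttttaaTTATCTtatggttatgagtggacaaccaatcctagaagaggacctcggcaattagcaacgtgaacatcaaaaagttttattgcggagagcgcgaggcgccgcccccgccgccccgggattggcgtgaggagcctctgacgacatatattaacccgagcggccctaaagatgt
Smarcd3: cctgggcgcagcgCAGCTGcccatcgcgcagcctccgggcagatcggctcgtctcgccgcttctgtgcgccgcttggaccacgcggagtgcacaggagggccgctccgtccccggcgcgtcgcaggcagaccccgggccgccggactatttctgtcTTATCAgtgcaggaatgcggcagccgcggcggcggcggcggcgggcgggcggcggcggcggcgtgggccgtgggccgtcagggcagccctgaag
Tbx20: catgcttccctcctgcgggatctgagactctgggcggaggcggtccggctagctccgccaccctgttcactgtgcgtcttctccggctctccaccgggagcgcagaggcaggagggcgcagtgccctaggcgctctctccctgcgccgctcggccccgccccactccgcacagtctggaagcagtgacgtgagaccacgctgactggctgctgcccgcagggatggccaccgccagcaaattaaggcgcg

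The Hand2 window held 2 GATA hexamers and 2 E-boxes, with the first E-box (CATCTG) and the first GATA hexamer (TGATAA) starting at −246 and −215 from the start. The Smarcd3 window held 1 of each, and the Tbx20 window neither; no matches overlapped. Among 32841 windows of the same length 26.5% held a GATA hexamer, 66.2% an E-box and 18.7% both. RefSeq windows were matched to 6 members, 8 windows in all. Of the other windows, those of Gata5 and Nkx2-5 held 1 E-box each, and the 3 of Mef2c held 2, 0 and 1, with no GATA hexamer among them. Hand1, Gata4, Gata6 and Tbx5 were not among the matched genes. Tbx20 was the only matched gene without a GATA hexamer or E-box in any window. The windows shown above thus do not test whether matches go with lower expression. A match describes these letters and is not evidence of binding.

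Hand2, a helix-loop-helix factor needed for right ventricle, outflow tract and limb, read 7.89, 7.30 and 6.86 in knockout replicates 1, 2 and 3, against 10.71, 10.04 and 9.41 in wild-type replicates. Every knockout array lay far below every wild-type array. Both genotypes were highest in replicate 1 and lowest in replicate 3, and the shift between them was nearly constant, at −2.82, −2.74 and −2.55. These 3 differences spanned 0.27, where the median span over all genes was 0.44. The mean was 7.35 ± 0.52 in knockout and 10.05 ± 0.65 in wild-type arrays (SD, n = 3), a difference of −2.70 or 6.51-fold. The SE was 0.38 without the block and 0.13 with it, and the limma adjusted p was 0.174 without the block and 0.00103 with it. By unadjusted p of the blocked fit Hand2 ranked 4 of 18193 genes. The blocked 95% interval ran from −3.01 to −2.39. With the arrays renormalised to 1 common distribution the differences by pair were −2.82, −2.70 and −2.80.

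Hand1, the other HAND gene, of trophoblast, extraembryonic mesoderm and left ventricle, read 9.46, 10.78 and 8.37 in knockout arrays and 11.05, 10.83 and 10.04 in wild-type arrays. The groups overlapped, with knockout replicate 2 within the wild-type range. The differences by pair were −1.59, −0.05 and −1.67, with a mean of −1.10 (SE 0.59; limma adjusted p = 1.00 without the block). With the block the SE was 0.31, and Hand1 did not pass (blocked limma adjusted p = 0.313, unadjusted p = 0.010). Leaving out knockout replicate 3 gave a mean of −0.52, and leaving out knockout replicate 2 gave −1.72. A second Hand1 probe set read 6.64, 6.94 and 6.91 in knockout arrays and 7.49, 7.31 and 8.26 in wild-type arrays. On that probe set the groups did not overlap, and the difference of −0.85 (SE 0.26) did not pass. Over all single-gene probe sets its limma adjusted p was 1.00 without the block and 0.297 with it.

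Smarcd3 read 7.56, 7.86 and 7.05 in knockout arrays and 9.01, 8.44 and 8.18 in wild-type arrays. The groups did not overlap, with a mean of 7.49 ± 0.41 in knockout and 8.55 ± 0.43 in wild-type arrays (SD, n = 3). The pair differences were −1.45, −0.59 and −1.13, with a mean of −1.06 (SE 0.28), a 2.08-fold lower level. It did not pass in limma over all genes (adjusted p = 0.786 without the block and 0.101 with it), although the unadjusted p was 0.0080. Groups lying apart with the knockout lower were seen for 2 of 10 members, where 4.47% of all genes had such groups. No member's groups lay apart the other way, where 3.45% of genes did. The BAF60 paralogues Smarcd1 and Smarcd2 encode the alternative subunits at the same place in the complex. Smarcd2 read 12.54, 11.75 and 11.68 in knockout arrays and 12.48, 12.04 and 11.45 in wild-type arrays, a difference of 0.00 (SE 0.33), and Smarcd1 differed by −0.19 (SE 0.30).

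Mef2c, a MADS-box factor of heart, muscle and endothelium, read 5.87, 5.46 and 5.35 in knockout arrays and 7.73, 6.45 and 5.54 in wild-type arrays. It stood above the array median on 3 of 6 arrays: wild-type replicates 1 and 2 and knockout replicate 1. The differences were −1.86, −0.99 and −0.19 by pair, with a mean of −1.01 (SE 0.51; limma adjusted p = 1.00 without the block). With the block the SE was 0.29, and Mef2c did not pass (blocked limma adjusted p = 0.319, unadjusted p = 0.011). Without wild-type replicate 1 the difference was −0.43, and without wild-type replicate 3 it was −1.53. The 4 other Mef2c probe sets lay below the median on all 6 arrays, so they give no second reading of the gene. Nkx2-5, the homeobox gene of early heart progenitors, read 6.90, 6.44 and 6.44 in knockout arrays and 6.42, 6.39 and 7.21 in wild-type arrays. The groups overlapped, and the pairs went both ways, at 0.48, 0.06 and −0.78 (mean −0.08, SE 0.26; limma adjusted p = 1.00). Without wild-type replicate 3 the mean turned to 0.19.

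The GATA factor genes of the heart did not pass. Gata4, which also marks endoderm, read 9.93, 9.02 and 9.14 in knockout arrays and 10.49, 9.43 and 9.05 in wild-type arrays. The groups overlapped, with a difference of −0.29 and a 95% interval from −1.27 to 0.68, and it turned to 0.12 without wild-type replicate 1. The second Gata4 probe set, below the array median on all 6 arrays, gave 0.07. Gata6 read 11.57, 10.73 and 10.62 in knockout arrays and 11.51, 10.96 and 10.21 in wild-type arrays. Its difference was 0.08, with a 95% interval from −0.84 to 1.00, and its second probe set gave 0.11. The remaining Gata6 probe set, below the array median on all 6 arrays, gave −0.38 and was lower in all 3 pairs. Without wild-type replicate 3 the difference of the brightest Gata6 probe set turned from 0.08 to −0.26, and without knockout replicate 1 to −0.22. Both intervals are from the fit without the block and reach past a doubling or a halving. With the block they ran from −0.68 to 0.09 for Gata4 and from −0.30 to 0.46 for Gata6, short of either. In neither fit do these arrays show the levels of Gata4 or Gata6 to be equal. Gata5, a gene of endocardium and endoderm, lay between 4.26 and 4.50 on all arrays, below the array median with both of its probe sets. Adjusted p in limma without the block was 1.00 for all 3 genes.

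Of the T-box genes, Tbx20, needed for heart growth and chamber identity, read 10.13, 11.07 and 9.80 in knockout arrays and 11.08, 10.84 and 10.56 in wild-type arrays. Pairs 1 and 3 differed by −0.95 and −0.76, and pair 2 by 0.22, so that the groups overlapped. As for Hand1, knockout replicate 2 was the highest of its group, and the mean of −0.49 (SE 0.33; limma adjusted p = 1.00) was −0.86 without it and −0.23 without knockout replicate 3. The other 2 Tbx20 probe sets also read above the median on all arrays and gave −0.58 and −0.38, lower in all 3 pairs each. On the one with −0.38 the groups did not overlap. It read 5.98, 6.21 and 6.15 in knockout arrays and 6.54, 6.30 and 6.65 in wild-type arrays. Over all single-gene probe sets it did not pass (blocked limma adjusted p = 0.607). Tbx5, a first heart field and forelimb gene, read 6.02, 5.92 and 5.71 in knockout arrays and 6.27, 5.90 and 6.65 in wild-type arrays, close to the array median throughout. Its difference of −0.39 (SE 0.21; limma adjusted p = 1.00) was widest in pair 3, at −0.94. The wild-type array of that pair had the lowest upper quartile. With the arrays renormalised to 1 common distribution, pair 3 of Tbx5 differed by −1.05. The second Tbx5 probe set, below the array median on all arrays, gave −0.27, with pairs at 0.07, 0.08 and −0.95. The part of the array distributions in the Tbx5 value was not tested.

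**Figure D2:**
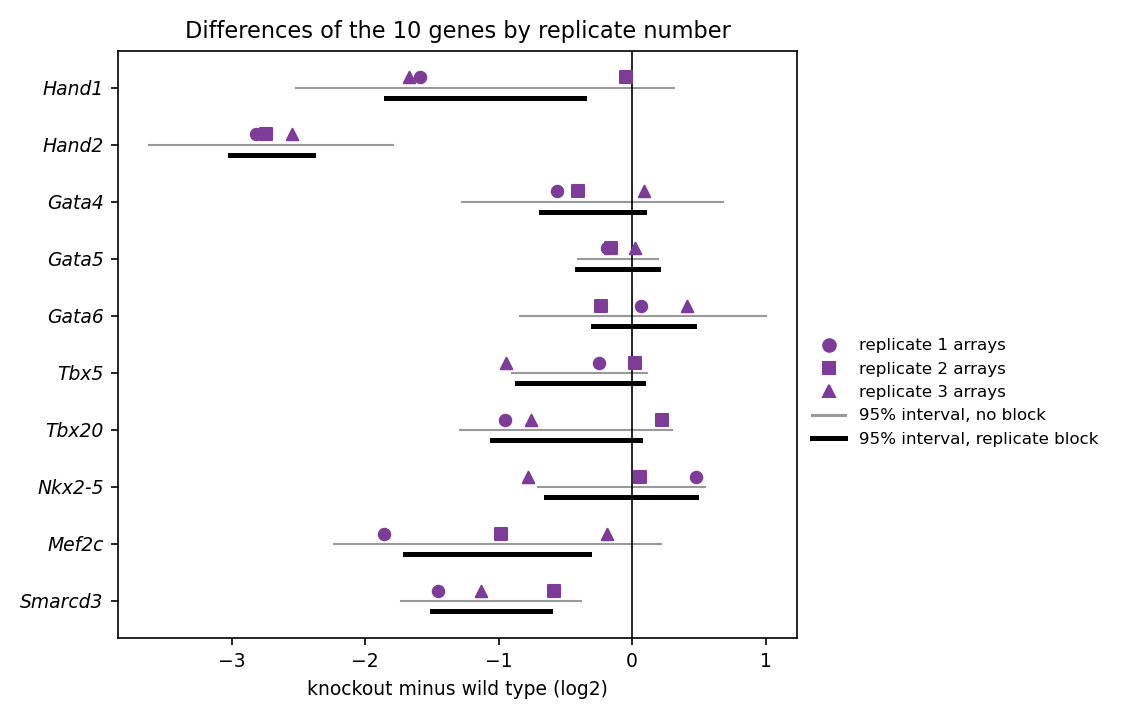
Knockout minus wild-type difference (log2) of each gene for arrays of replicate number 1, 2 and 3 (symbols), with the 95% limma interval without the block (grey) and with it (black). The Hand2 points lie within 0.27 of each other, while those of Hand1, Mef2c and Nkx2-5 span 1.62, 1.67 and 1.26.

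Over the 10 members 9 means were lower in knockout cells, where 53.7% of all genes were lower, and 49% of those above the median level. The median difference was −0.44, against −0.01 over all genes. It was −0.76, −0.19 and −0.77 in pairs 1, 2 and 3, and −0.27 without knockout replicate 3. A lower value in all 3 pairs was seen for 4 of 10 members (Hand1, Hand2, Mef2c and Smarcd3), where 14.9% of all genes showed it, and 16.5% of those above the median level. In the wild type 7 members were highest in replicate 1 and lowest in replicate 3: Hand1, Hand2, Gata4, Gata6, Tbx20, Mef2c and Smarcd3. That order held for 27.9% of all genes, or 38.4% of those above the median level, and the part of the array distributions in it was not tested.

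The 24 probe sets differed in how far they could read their gene. There were 11 above the array median on all 6 arrays, from 7 genes, of which 9 were lower in knockout cells. Another 11 were below it on all 6 arrays, of which 10 were lower in knockout cells, and 2 were below it on some. The direction thus did not set bright probe sets apart from dim ones. The 2 other Hand2 probe sets were among the dim ones, at 3.97 to 5.06, and differed by −0.42 and −0.36. The Hand2 result thus rests on 1 of 3 probe sets, and with all 3 averaged its difference was −1.16 (blocked limma adjusted p = 0.0430).

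**Figure D3:**
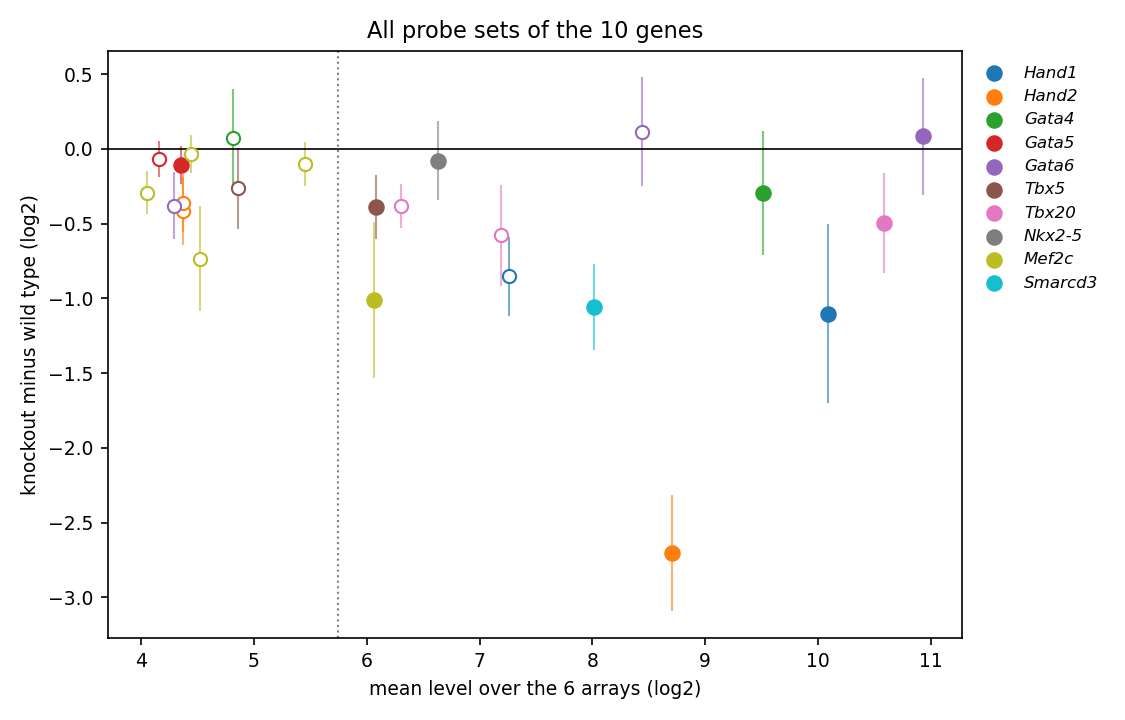
Difference (log2, knockout minus wild type, bars are SE) against mean level for all 24 probe sets, filled for the probe set reported first and open for the others; the dotted line is the median of all probe sets. The 11 probe sets below the array median on all arrays lie between −0.73 and 0.07, and 2 of the 3 Hand2 probe sets are among them.

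The genomic setting differed between the HAND genes. Hand2 lies on chromosome 8, whose 606 genes above the median level had a median difference of 0.26, and Hand1 on chromosome 11, where 951 such genes had a median of −0.23. On the chromosomes of the other members the same medians lay between 0.00 and 0.03. The 2 Y-linked genes above the median level had a median of −3.72. The 3 nearest measured genes on each side, a set chosen after values were seen, were all higher in knockout cells around Hand2, by 0.04 to 1.35. Both ends of that range were genes near background: Scrg1 (0.04) was above the array median on 0 arrays and Hpgd (1.35) on 1. The neighbours of Hand2 above it on all 6 arrays differed by 0.11 to 0.37. Fbxo8 and Sap30, among these, differed by 0.37 and 0.28, so that Hand2 went against its neighbours. Around Hand1 the 6 nearest were all lower, between −0.65 and −0.10 with a median of −0.48, so that Hand1 went the same way as its neighbours. The −0.10 was that of 2010001A14Rik, above the array median on 0 arrays. None of these neighbours of either gene passed in limma with the block. The part of the chromosome-wide shifts in the Hand1 value was not tested. Around Smarcd3 the 6 neighbours lay between −0.25 and 0.19, and around Mef2c between −0.04 and 0.20.

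**Figure D4:**
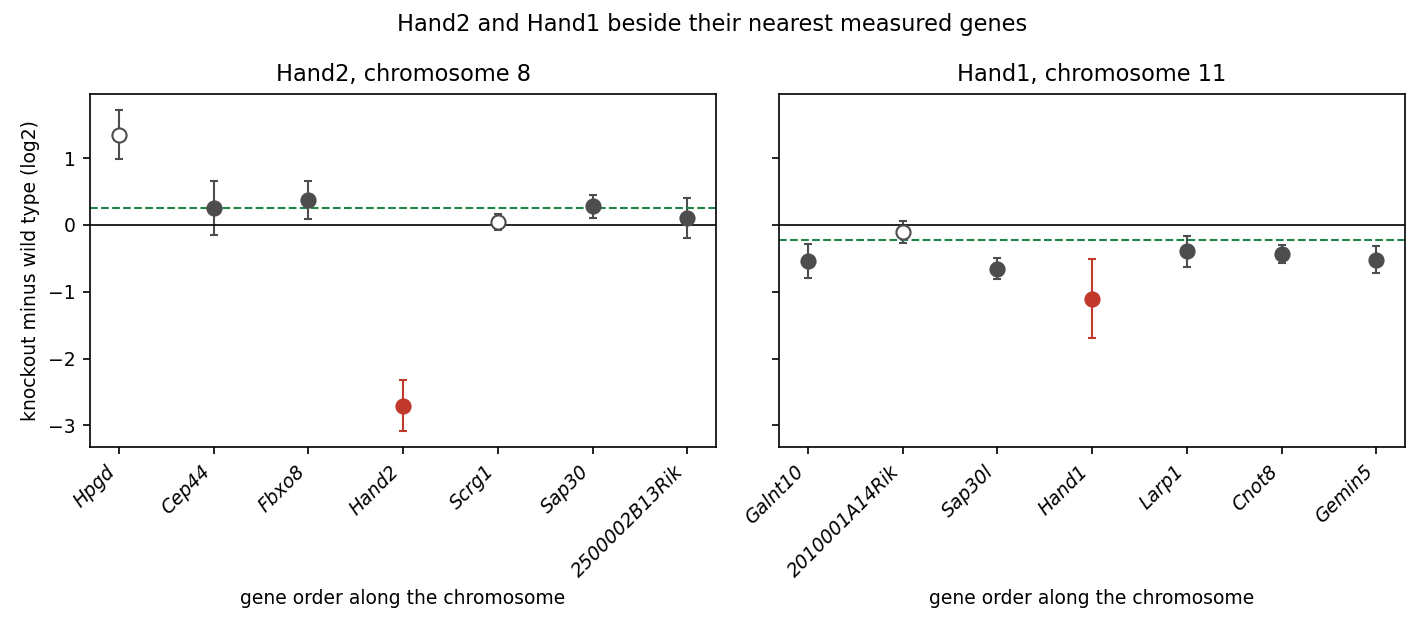
Knockout minus wild-type difference (log2, bars are SE) of Hand2 and Hand1 (red) and the 3 nearest measured genes on each side (dark grey; open where below the array median on at least 1 array), in chromosome order. The green dashed line is the median of genes of that chromosome above the median level, 0.26 for chromosome 8 and −0.23 for chromosome 11.

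Other genes of the cardiac programme came from 3 textbook lists. Of 30 measured upstream signals and early mesoderm regulators 17 were lower and 13 higher, with a median of −0.02, and 0 passed in either fit. In limma 3 of them had an unadjusted p under 0.05 without the block and 10 with it, 5 in each direction. Of all genes 3.85% had this without the block and 8.94% with it. Its brightest genes were Tdgf1, a Nodal co-receptor gene (−0.14), Eomes, a T-box gene of the primitive streak (0.19), and Mixl1, a homeobox gene of the streak (0.68). Among genes named after their values were seen, the groups did not overlap for Bmp5 (−0.88), Bmp4 (−0.29) and the Wnt inhibitor gene Dkk1 (0.52). These were 2 of 30 genes with the knockout lower and 1 with it higher, where 4.47% and 3.45% of all genes had such groups. Mesp1, a master regulator of heart progenitors, read 11.23, 10.33 and 11.59 in knockout arrays and 12.10, 11.38 and 11.31 in wild-type arrays, with overlapping groups.

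Of 52 measured family members and partners of the cardiac factors, 29 were lower and 23 higher, with a median of −0.04. Of these 0 passed in limma without the block. At an unadjusted p under 0.05 there were 3 without the block and 9 with it, where 3.85% and 8.94% of all genes were. With the block 1 passed, where 0.341% of all genes did. It was Gata1, a GATA factor gene of blood, at 6.27 ± 0.10 in knockout and 7.58 ± 0.09 in wild-type arrays (SD, n = 3; blocked limma adjusted p = 0.0194, unblocked 0.0542). The brightest of the rest, Cited2, Smarcd2 and Tcf12, differed by −0.12, 0.00 and 0.16. The LIM-homeodomain partner gene Isl1, chosen after its values were seen, read 9.19, 9.30 and 9.13 in knockout arrays and 9.60, 9.33 and 8.67 in wild-type arrays. Its difference was 0.01, with a 95% interval from −0.57 to 0.58. The groups also lay apart for Meis1, at −1.49, near background on most arrays, and for Tbx4, at −0.80 and below the array median throughout. With Gata1 these were 3 of 52 genes with the knockout lower, and 0 lay apart the other way. Of all genes 4.47% and 3.45% had such groups.

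Of 40 measured cardiac target genes, mostly of sarcomere and calcium handling, 27 were lower and 13 higher, with a median of −0.10, and 0 passed in either fit. In limma 4 had an unadjusted p under 0.05 without the block and 9 with it, where 3.85% and 8.94% of all genes did. The brightest, the connexin gene Gja1, the calcium pump gene Atp2a2 and the tropomyosin gene Tpm1, differed by −0.13, −0.03 and 0.42. The groups lay apart, with the knockout lower, for the atrial myosin light chain gene Myl7 (8.37 ± 0.40 in knockout and 9.81 ± 0.38 in wild-type arrays; SD, n = 3), the RNA-binding protein gene Rbm24 (−1.15), and Myh6, Myh7b and Ldb3, which read near background. Myl2 and Smpx lay apart in the other direction, also near background. In all, 5 of 40 genes lay apart with the knockout lower and 2 with it higher, where 4.47% and 3.45% of all genes did.

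**Figure D5:**
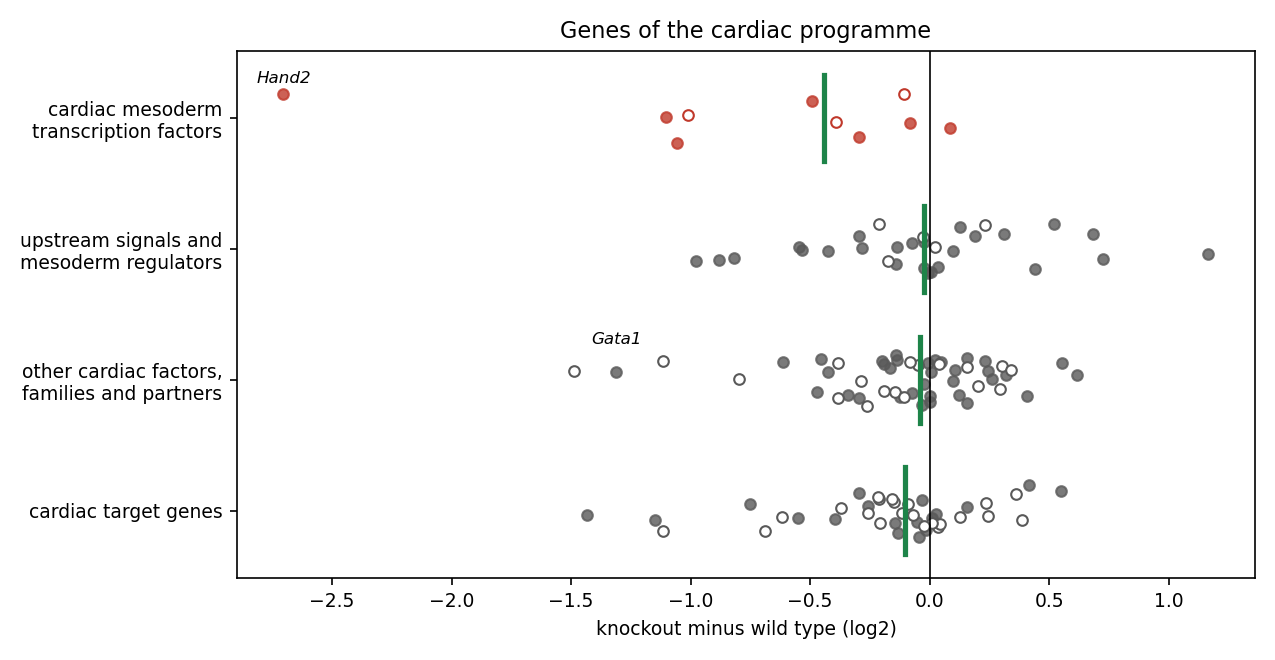
Knockout minus wild-type difference (log2) of each gene in the 10-gene list (red) and the 3 other cardiac lists (grey), filled where the gene read above the array median on all 6 arrays. Green bars are list medians, −0.44, −0.02, −0.04 and −0.10 from top to bottom, and names mark genes that passed with the block.

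Several of the 10 factors are also used by other cells, whose markers were read on the same arrays as log2 of the summed linear levels. For trophoblast 9 of 13 markers were measured, and their sum was 9.76 to 10.89 in knockout arrays and 10.91 to 11.15 in wild-type arrays, without overlap, with Elf5, Tpbpa, Krt7, Esx1 and Rhox6 below the array median on all arrays. Plac1, its brightest marker, read 8.37, 10.34 and 7.79 in knockout arrays and 10.18, 10.39 and 10.41 in wild-type arrays. As for Hand1, knockout replicate 2 alone lay within the wild-type range. Of the 9 markers 7 were lower in knockout cells, with a median difference of −0.06. Tfap2c and Cdx2, the other markers above the median on all arrays, differed by 0.03 and −0.05. Without Plac1 the sums overlapped, at 9.21 to 9.95 in knockout arrays and 9.14 to 10.12 in wild-type arrays, as they also did without Tfap2c. The part of trophoblast cells in the Hand1 value was not tested.

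For endoderm 20 of 22 markers were measured. Their sum overlapped between genotypes, at 11.26 to 12.18 in knockout and 11.52 to 12.25 in wild-type arrays, with Afp, Apob, Apoa4, Amn and Cubn below the median throughout. Of the 20 markers 16 were lower in knockout cells, with a median difference of −0.18. In limma 0 passed without the block and 2 with it, where 0.022% and 0.341% of all genes did. The 2 were Spink1 (−1.31; blocked limma adjusted p = 0.0238) and Rhox5 (−1.52; blocked limma adjusted p = 0.0500). The part of the endoderm markers in the Gata4 and Gata6 values was not tested. All 17 endothelial markers were measured. Their sums overlapped as well, at 12.93 to 13.72 in knockout and 13.10 to 13.39 in wild-type arrays. Pecam1, Tie1, Emcn and Robo4 were below the median. The difference of the sums, 0.04, was −0.26 without Etv2 and 0.35 without Kdr, with overlap in each case. Etv2 and Kdr are also markers of Flk1+ mesoderm, so the sum is not a reading of endothelium alone. The part of endothelial cells in the Mef2c value was not tested. For paraxial mesoderm 15 of 15 markers gave 9.54 to 10.37 in knockout and 10.08 to 11.36 in wild-type arrays, with Meox1, Meox2, Pax3, Ripply2 and Uncx below the median.

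The sums of 2 other lists also lay apart between the genotypes. Blood markers, 16 of 17 measured, summed to 9.77 to 10.13 in knockout and 11.02 to 11.19 in wild-type arrays, with Ptprc, Spi1, Hbb-y, Hba-x and Vav1 below the median. Of the 16, 13 were lower in knockout cells, and the sums lay apart with any 1 marker left out. In limma 1 passed without the block, Hbb-bh1 (−3.89; unblocked adjusted p = 0.0049), where 0.022% of all genes did. With the block 6 passed, each lower in knockout cells, where 0.341% of all genes passed. Markers of undifferentiated ES cells, 11 of 12 measured, summed to 12.74 to 13.19 in knockout and 12.24 to 12.69 in wild-type arrays, with Fbxo15 below the median. That separation rested on Dppa5a (1.20), without which the sums overlapped, at 11.70 to 12.36 in knockout and 11.62 to 12.26 in wild-type arrays. Of the 11 markers 5 were lower in knockout cells. In limma 0 passed without the block and 1 with it, Dppa5a (blocked limma adjusted p = 0.0315). The part of either shift in the lower Hand2 and Smarcd3 levels was not tested.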

How the data were processed

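RNA of Flk1+ embryoid body cells was hybridised to 6 Affymetrix mouse expression arrays. The deposited values are log2 levels per probe set; RMA and affy are the tools that the submitters' processing notes list, without versions. Of 45101 probe sets, 64 were controls and 34945 were annotated to exactly 1 gene; the brightest probe set of each of 18193 genes was used. Outdated symbols were updated through RefSeq (GRCm38.p6), and no scanner files were used here. Knockout and wild-type arrays were compared over all genes with limma 3.58.1 (lmFit, eBayes) in R 4.3.3, with Benjamini-Hochberg adjustment and a threshold of 0.05, without and with the replicate number as a block. Deviations of same-numbered arrays from their genotype means correlated at 0.699, 0.354 and 0.448 across probe sets, each above the limit of 0.1, and each array was closest to its own number. The numbers were therefore taken to pair the arrays, though the labels do not say what they stand for. The fits were tested on simulated data. Precision is limited by having 3 arrays a group.

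The members and lists were chosen with earlier results of these data known. Named genes are the members and, per list, up to 4 called genes and the 3 brightest others; any other gene named was chosen after its values were seen. Marker sums were also taken with each marker left out in turn, chosen after seeing the data. Alternatives were the block, arrays or pairs left out, a filter on dim probe sets, repeated quantile normalisation, median centring, trended robust variance, array weights, averaged probe sets, and leaving out probe sets that can cross-hybridise. Figures used matplotlib 3.10.9.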

Additional observations from a re-analysis of the deposited data

How the results depend on the processing

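Hand2 was lower in all 23 alternatives and passed in 8: all 7 with the replicate block, and array weights. Its adjusted p was 0.00103 with the replicate block (−2.70), 0.000728 with dim probe sets also left out and 0.000667 with cross-hybridising ones left out. It was 0.0430 with probe sets averaged (−1.16), and 0.0103 with array weights (−2.79). With the block it was −2.65, −2.68 and −2.78 without the arrays of number 1, 2 and 3, and without single arrays it ran from −3.03 to −2.38 and did not pass. The replicate block on all arrays changed no other member's call. Members past the threshold numbered 1 with the block, in its other forms on all arrays and with array weights. With the block they numbered 1, 3 and 3 without the arrays of number 1, 2 and 3: Hand1 (−1.63) and Smarcd3 (−1.29) joined without number 2, and Mef2c (−1.42) and Smarcd3 (−1.02) without number 3. All genes past the threshold numbered 4, against 62 with the replicate block, 55, 50 and 48 with dim or cross-hybridising probe sets left out or probe sets averaged as well, and 68 with array weights. With the block they numbered 50, 267 and 815 without number 1, 2 and 3, and without the block 1, 1 and 2. Without single arrays they ran from 1 to 6. The cause of these differences was not tested.

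The members' median lay between −0.73 and −0.27. Without the number 3 arrays, with or without the block, Gata6 turned to −0.082, Nkx2-5 to 0.27 and the median of cardiac target genes to 0.019. Without single arrays Gata4 ran from −0.60 to 0.12, Gata6 from −0.26 to 0.39, Nkx2-5 from −0.23 to 0.19 and the median of the partner list from −0.21 to 0.10. Gata6 was −0.061 with probe sets averaged, with or without the block, and −0.15 with array weights, where Nkx2-5 was 0.10. Called genes of the upstream, partner and target lists numbered 7, 5 and 8 with the block without number 3, and 4, 2 and 3 without number 2. The partner list had 1 in the other blocked fits, with array weights and with probe sets averaged, and the upstream list 1 with array weights. Fits without the block that left out a pair were chosen after seeing the data.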
